A study of Mus musculus with 24 samples.

Results

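The interferon-stimulated genes followed here are 35 genes, 18 that respond mainly to type I interferon (type I-biased) and 17 that respond mainly to interferon-gamma (gamma-biased). The members were listed by symbol and found by Ensembl identifier. The rule uses no measured value, but the members were chosen with earlier results of these data known. All 35 were listed among the 36109 genes of the lung table and the 36595 genes of the retina table. All 35 passed the filter on low counts in the lung, where 16819 genes were tested, and 34 passed it in the retina, where 19173 genes were tested and Cxcl9 was too low.

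RNA-seq was performed on whole lungs and on retinas of newborn mice, 3 mice in each of 4 groups per tissue, to ask how loss of gasdermin D (GSDMD), the pore-forming protein that executes pyroptosis, alters the response to hyperoxia. Wild type pups formed the groups WT-RA (room air) and WT-O2 (hyperoxia), and GSDMD-KO pups the groups KO-RA and KO-O2. The strain was C57/B6, the KO mice were homozygous for a CRISPR/Cas9 allele with a small deletion inside an exon of Gsdmd in all cells, and the WT mice were littermates born to heterozygous parents. Lungs were collected on postnatal day 15 after 85% oxygen (O2 groups) or 21% oxygen (RA groups) from day 1 to day 14, and retinas on day 18 after 75% oxygen from day 7 to day 12 followed by room air, or after room air throughout. Hyperoxia thus ended 1 day before collection in the lung and 6 days before it in the retina. Each library carries its own mouse number, and values below are listed for WT-RA mice GSD398, GSD399 and GSD400, WT-O2 mice GSD403, GSD405 and GSD406, KO-RA mice GSD490, GSD496 and GSD497, and KO-O2 mice GSD061, GSD097 and GSD493 in the lung. In the retina the order is WT-RA GSD379, GSD382 and GSD383, WT-O2 GSD345, GSD347 and GSD350, KO-RA GSD301, GSD302 and GSD304, and KO-O2 GSD306, GSD308 and GSD310.

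Interferons signal through JAK kinases. Type I interferons act through the receptor chains Ifnar1 and Ifnar2 and the kinases Jak1 and Tyk2, and activate a complex that contains Stat2 and Irf9 and binds the interferon-stimulated response element (ISRE). Interferon-gamma acts through Ifngr1 and Ifngr2, Jak1 and Jak2, its responsive genes carry the gamma-activated site (GAS), and part of the response runs by way of the transcription factor Irf1. The type I-biased members include transcription factors of this pathway (Stat2, Irf7, Irf9), RNA sensors (Ddx58, which encodes RIG-I, and Ifih1, which encodes MDA5), antiviral effectors (the Ifit, Oas and Mx families, Rsad2, Ifi44, Bst2) and the ubiquitin-like protein Isg15 with its protease Usp18. The gamma-biased members include Irf1, the antigen presentation genes (Tap1, Tap2, Psmb8, Psmb9, B2m) and the chemokines Cxcl9 and Cxcl10. Also among them are the guanylate-binding proteins (Gbp2, Gbp3, Gbp5, Gbp6, Gbp7) and immunity-related GTPases (Igtp, Irgm1, Irgm2, Iigp1), with roles against intracellular pathogens.

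The promoters of the members were read to show what the lists share in sequence. Promoter sequence was found in the RefSeq table (GRCm38.p6) for 28 of 35 members, 14 of each list, and was read over 250 bases before the transcription start. The ISRE core, spelled TTTCNNTTTC and searched on both strands, occurred in 7 of 14 type I-biased and 9 of 14 gamma-biased promoters, beside 3.46% of the promoters of 27025 genes. The GAS core, spelled TTCNNNGAA and searched on both strands, occurred in 3 of 14 type I-biased and 6 of 14 gamma-biased promoters, beside 8.13% of all promoters. Where an ISRE and a GAS match overlapped, both were counted. A match is a description of the letters and not a measured binding site.

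The 4 promoters below belong to genes that carry the changes described further on and hold at least 1 match, with the matched letters in capitals. Ifit3 (chr19:34583279-34583528, plus strand) has ISRE matches whose last bases lie at positions -147 and -113, counted back from the transcription start. Cxcl10 (chr5:92348890-92349139, minus strand) has 1 ISRE match ending at -204. Gbp7 (chr3:142530086-142530335, plus strand) has 1 ISRE match ending at -44 and GAS matches ending at -98 and -79. Irf1 (chr11:53769764-53770013, plus strand) has 1 GAS match ending at -82 and no ISRE match in this window. The window of a second listed start of Irf1 (chr11:53770223-53770472, plus strand), not shown, holds no match to either core.
Ifit3: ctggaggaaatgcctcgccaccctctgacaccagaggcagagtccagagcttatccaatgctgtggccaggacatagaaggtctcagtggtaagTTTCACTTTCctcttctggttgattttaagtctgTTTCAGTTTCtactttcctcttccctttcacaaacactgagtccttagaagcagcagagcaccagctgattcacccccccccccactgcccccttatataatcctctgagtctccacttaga
Cxcl10: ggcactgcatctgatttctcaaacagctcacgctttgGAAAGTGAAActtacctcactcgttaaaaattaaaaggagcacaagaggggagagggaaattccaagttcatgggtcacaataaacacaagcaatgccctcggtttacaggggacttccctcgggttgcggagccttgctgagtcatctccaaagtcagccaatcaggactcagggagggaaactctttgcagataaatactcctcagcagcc
Gbp7: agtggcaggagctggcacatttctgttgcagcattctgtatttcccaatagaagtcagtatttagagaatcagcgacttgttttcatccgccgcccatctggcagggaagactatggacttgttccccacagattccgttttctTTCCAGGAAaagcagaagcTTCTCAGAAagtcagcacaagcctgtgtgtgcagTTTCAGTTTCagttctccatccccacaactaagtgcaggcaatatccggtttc
Irf1: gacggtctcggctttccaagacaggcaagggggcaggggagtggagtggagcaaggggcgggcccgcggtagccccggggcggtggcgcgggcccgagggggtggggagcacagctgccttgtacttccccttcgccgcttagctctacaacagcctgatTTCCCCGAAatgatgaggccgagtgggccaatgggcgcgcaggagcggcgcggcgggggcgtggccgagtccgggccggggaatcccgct

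Tap1 and Psmb9 are shown because they lie head to head on chromosome 17 and moved in opposite directions in the KO lung. Their 250-base windows, Tap1 at chr17:34187306-34187555 on the plus strand and Psmb9 at chr17:34187331-34187580 on the minus strand, are largely the same DNA read from opposite ends. Neither window holds a match to either core. Irf7 (chr7:141266425-141266674, minus strand) and Oasl2 (chr5:114896684-114896933, plus strand), the members that rose in both retina comparisons, also hold no match in this window.
Tap1: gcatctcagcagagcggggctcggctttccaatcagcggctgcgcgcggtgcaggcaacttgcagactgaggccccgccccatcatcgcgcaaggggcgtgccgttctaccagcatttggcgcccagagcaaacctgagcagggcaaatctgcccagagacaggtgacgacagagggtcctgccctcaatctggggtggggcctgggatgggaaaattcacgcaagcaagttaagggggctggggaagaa
Psmb9: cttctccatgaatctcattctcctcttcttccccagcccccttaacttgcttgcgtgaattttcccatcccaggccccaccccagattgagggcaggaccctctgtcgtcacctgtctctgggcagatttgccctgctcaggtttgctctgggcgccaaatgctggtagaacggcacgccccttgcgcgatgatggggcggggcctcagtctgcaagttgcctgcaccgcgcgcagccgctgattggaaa
Irf7: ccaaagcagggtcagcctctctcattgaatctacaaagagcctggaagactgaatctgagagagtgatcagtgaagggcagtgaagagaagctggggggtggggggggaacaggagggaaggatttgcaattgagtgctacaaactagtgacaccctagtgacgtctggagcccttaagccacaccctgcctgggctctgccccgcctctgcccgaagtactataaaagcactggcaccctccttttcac
Oasl2: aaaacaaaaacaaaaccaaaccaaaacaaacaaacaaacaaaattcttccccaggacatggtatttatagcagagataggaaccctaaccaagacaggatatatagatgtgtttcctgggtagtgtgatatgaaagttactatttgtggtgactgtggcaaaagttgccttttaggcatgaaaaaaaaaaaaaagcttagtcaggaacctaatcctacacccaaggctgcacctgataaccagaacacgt

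Library totals were 28763661 to 29604254 estimated counts in the lung and 24863257 to 29093035 in the retina. Levels below are CPM, counts scaled to library size with TMM factors, and compare libraries of 1 gene, not genes with each other. Gsdmd was listed in all libraries, since the counts cover the whole gene: in the lung 40.6 to 42.3 CPM in WT-RA, 32.1 to 36.4 in WT-O2, 22.6 to 24.8 in KO-RA and 11.7 to 16.3 in KO-O2. In the retina it was 4.08, 0.419 and 2.70 CPM in WT-RA, 2.90 to 5.70 in WT-O2, 0.636 to 0.980 in KO-RA and 1.11 to 2.95 in KO-O2. WT-O2 and KO-O2 retinas thus overlapped, and the library labelled WT-RA GSD382 lay below every KO retina and goes against its label. In the RA groups 3 retinas held lens transcripts, with summed lens and pigment epithelium markers of 11087 (GSD382), 36696 (GSD383) and 14881 CPM (GSD304), beside 12.6 to 217 in the other 9. Y-linked transcripts marked 3 KO-O2 lungs, 2 KO-RA lungs, 1 WT-O2 lung and 0 WT-RA lungs, and in the retina all 6 RA libraries, 1 WT-O2 and 1 KO-O2 library.

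The interferons themselves were near or under the limit of detection. Of 21 interferon genes listed, 16 had no count in any lung and 12 no count in any retina, Ifnb1 among them in both tissues. A count of 0 allows a level of up to 0.1004 to 0.106 CPM in a lung library and 0.0936 to 0.128 CPM in a retina library (3 counts, counting error only). Ifng reached at most 0.203 CPM in the lung, with 1 of 12 libraries at 0, and was at 0 in 11 of 12 retinas. Only 1 interferon gene, Ifnz, passed the filter, in the lung, and it did not pass any test there (0 of 5 contrasts).

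In WT lungs hyperoxia lowered most of the gamma-biased genes, while 14 of 18 type I-biased genes did not pass the test. The guanylate-binding proteins Gbp2, Gbp3, Gbp5 and Gbp7, the GTPases Irgm1 and Irgm2, the immunoproteasome subunits Psmb8 and Psmb9, the peptide transporter subunit Tap2 and the transcription factor Irf1 were lower, with log2 fold changes of -1.32 to -0.20. Against them the chemokine Cxcl10 was 6.09-fold higher and Iigp1 was 1.54-fold higher. Of the type I-biased genes, Ifit3 and Mx1 were higher and Rsad2 and Ifi44 were lower.

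By edgeR's quasi-likelihood test at a Benjamini-Hochberg adjusted p under 0.1, 16 of 35 members passed, 4 higher and 12 lower, where 24.5% of all genes tested passed higher and 24.7% passed lower. For the gamma-biased list 2 of 17 were higher and 10 of 17 lower, with a median log2 fold change of -0.49. For the type I-biased list 2 of 18 were higher and 2 of 18 lower, with a median of -0.06, and the median of all genes was -0.01. The type I-biased median was -0.22 without WT-RA GSD400, when 24 members passed, and 0.05 without WT-RA GSD398. With a fold change of at least 2 as well, 1 member was higher (Cxcl10), where 5.04% of all genes were, and 3 were lower (Rsad2, Gbp2 and Gbp7), where 6.57% were.

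Cxcl10, a chemokine that draws T cells, was at 0.977, 1.14 and 0.722 CPM in WT-RA and 5.63, 6.06 and 5.71 CPM in WT-O2 lungs. The groups did not overlap, and the log2 fold change was 2.61 ± 0.21 (SE, n = 3 mice per group; edgeR adjusted p = 3.4e-07). Iigp1, a GTPase that disrupts pathogen vacuoles, was at 54.6, 49.6 and 52.7 CPM in WT-RA and 85.4, 81.7 and 75.1 CPM in WT-O2. All 3 WT-O2 lungs were above all 3 WT-RA lungs (log2 fold change 0.63 ± 0.10, edgeR adjusted p = 0.00012). Cxcl9, the other chemokine of the list, was at 0.55 to 1.08 CPM in WT-RA and 0.963 to 2.05 CPM in WT-O2, with overlap, and did not pass the test.

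Irf1, the transcription factor that carries part of the interferon-gamma response, was at 94.3, 98 and 83.5 CPM in WT-RA and 51.2, 48.0 and 47.7 CPM in WT-O2. Every WT-O2 lung was lower (log2 fold change -0.91 ± 0.09, edgeR adjusted p = 1.4e-06). Gbp2 was at 57.0, 49.2 and 32.3 CPM in WT-RA and 21.9, 21.2 and 21.9 CPM in WT-O2, and Gbp7 at 58.0, 48.1 and 30.5 CPM and 22.6, 15.4 and 16.9 CPM. Neither gene's groups overlapped, and in both the WT-RA mouse GSD400 was the lowest of its group (log2 fold changes -1.09 ± 0.17 and -1.32 ± 0.21, edgeR adjusted p = 0.00023 and 0.00030). Psmb9 was at 18, 18 and 16.8 CPM in WT-RA and 10.3, 10.6 and 9.52 CPM in WT-O2, a clear separation (log2 fold change -0.79 ± 0.12, edgeR adjusted p = 0.00013). Mean levels of the other members that fell went from 26.1 to 14.5 CPM for Gbp3, 8.99 to 4.89 for Gbp5, 35.7 to 25 for Irgm1, 38.6 to 24.7 for Irgm2, 37.7 to 26.9 for Psmb8 and 54.8 to 47.7 for Tap2. In each of these 6 genes the 3 WT-O2 lungs were at or below the lowest WT-RA lung, and the call of Tap2 was lost in 2 of 12 fits without 1 library.

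Ifit3 was at 41.7, 36.3 and 26.1 CPM in WT-RA and 67.7, 63.1 and 65.9 CPM in WT-O2. The WT-O2 lungs were all higher (log2 fold change 0.92 ± 0.15, edgeR adjusted p = 0.00025). Its near copy Ifit3b, with which reads can be shared, rose as well (log2 fold change 0.79), and the sum of both went from 42.1 ± 9.45 to 78.2 ± 2.42 CPM (SD, n = 3). Rsad2, which makes the antiviral nucleotide ddhCTP, was at 15, 13.5 and 14.3 CPM in WT-RA and 4.88, 4.37 and 4.56 CPM in WT-O2, the largest fall of the type I-biased list (log2 fold change -1.63 ± 0.34, edgeR adjusted p = 0.0029). Ifi44 went from 10.5, 9.22 and 4.82 CPM to 4.33, 5.09 and 4.09 CPM, with overlap through GSD400 (log2 fold change -0.86 ± 0.23, edgeR adjusted p = 0.0088). Mx1 went from 3.03 to 4.75 CPM in WT-RA to 4.71 to 6.51 CPM in WT-O2 (log2 fold change 0.50 ± 0.22, edgeR adjusted p = 0.082), a call lost in 4 of 12 fits that each left out 1 library.

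Of the wider pathway, Ifngr1, the ligand-binding chain of the interferon-gamma receptor, was at 223, 195 and 157 CPM in WT-RA and 110, 109 and 103 CPM in WT-O2 lungs (log2 fold change -0.84, edgeR adjusted p = 2.1e-05). Ifnar1, Tyk2 and Jak1 also fell, with log2 fold changes of -0.17, -0.24 and -0.20, and Socs3, an inhibitor of JAK signaling, rose by 1.13 on that scale. Of 9 negative regulators of the pathway 3 were higher and 2 lower. Among 53 other type I-responsive genes 8 were higher and 28 lower, with Tor3a, Sp100 and Ifi203 (log2 fold changes -1.08, -1.22 and -1.59) the falls of smallest p. Among 30 other interferon-gamma-responsive genes 7 were higher and 12 lower, led by Serpina3g (1.88), Gbp4 (-1.89) and Ifi47 (-1.66), where 24.5% of all genes were higher and 24.7% lower.

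Markers of several other cell types moved in the same comparison. Of neutrophil markers 0 of 5 passed, and of 5 monocyte markers 2 were higher and 2 lower. Plasmacytoid dendritic cell markers were lower in 1 of 5 and higher in 0. Macrophage markers summed to 314 to 375 CPM in WT-RA and 556 to 589 CPM in WT-O2, with 9 of 10 higher, while B cell markers went from 188 to 197 CPM to 46.2 to 54.4 CPM, with 4 of 4 lower, and 7 of 11 T and NK cell markers were lower. Erythroid markers summed to 15751 to 18153 CPM in WT-RA and 2920 to 4152 CPM in WT-O2. Endothelial markers went from 4350 to 4700 CPM to 3366 to 3694 CPM (4 of 8 lower, 1 higher), lung epithelial markers from 31207 to 35674 CPM to 23203 to 26630 CPM (5 of 8 lower, 1 higher) and thymus markers from 18.6 to 19.3 CPM to 5.71 to 7.26 CPM (2 of 3 tested lower). In whole tissue, fewer cells of a type and less RNA per cell cannot be told apart, and the part of these cells in the changes of the members was not tested.

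**Figure D1:**
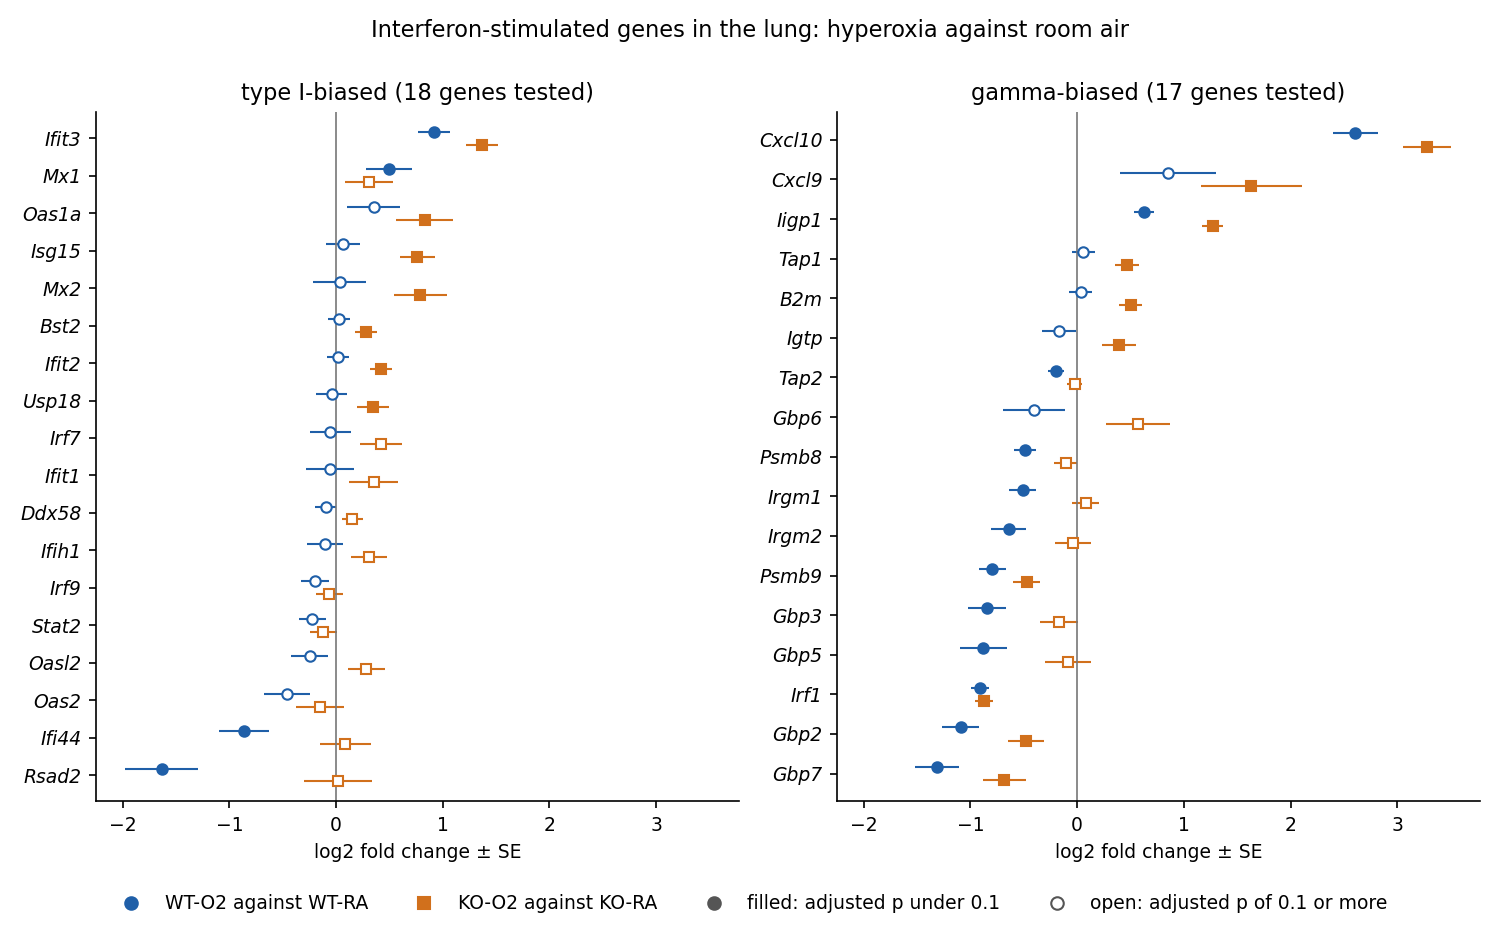
Log2 fold change (± SE) of each member between hyperoxia and room air in the lung, in WT mice (circles) and GSDMD-KO mice (squares), 3 mice per group. Filled symbols passed the edgeR test at an adjusted p under 0.1. In 34 of 35 members the GSDMD-KO square lies to the right of the WT circle, Mx1 being the exception.

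In GSDMD-KO lungs hyperoxia raised members of both lists, while the share of gamma-biased genes that fell, 4 of 17, was near the 23.4% of all genes. Ifit3, Isg15, Ifit2, Oas1a, Mx2, Usp18 and Bst2 rose among the type I-biased genes, and Cxcl10, Cxcl9, Iigp1, B2m, Tap1 and Igtp among the gamma-biased genes. Irf1, Gbp7, Gbp2 and Psmb9 fell, as they did in WT. Isg15, Ifit2, Mx2, Oas1a, Bst2, Usp18, B2m, Tap1, Igtp and Cxcl9 did not pass the test in WT, where their log2 fold changes were -0.17 to 0.85. The test of the difference between genotypes, the interaction given further on, passed 0 of 35 members.

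By the same edgeR test 17 of 35 members passed, 13 higher and 4 lower, where 23.3% of all genes passed higher and 23.4% lower. The type I-biased list had 7 of 18 higher and 0 lower, by DESeq2 also 0 lower and 0 lower at an unadjusted p under 0.05, with a median log2 fold change of 0.31. The gamma-biased list had 6 of 17 higher and 4 of 17 lower, with a median of -0.02, and the median of all genes was -0.01. At a fold change of at least 2, Ifit3, Cxcl10, Cxcl9 and Iigp1 (4 members) were higher, where 4.57% of all genes were. In fits that each left out 1 library between 13 and 22 members passed.

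Cxcl10 was at 0.547, 0.621 and 0.814 CPM in KO-RA and 5.49, 7.58 and 6.26 CPM in KO-O2 lungs, a 9.69-fold rise with no overlap (log2 fold change 3.28 ± 0.22, edgeR adjusted p = 7.8e-08). Cxcl9 was at 0.615, 0.793 and 0.237 CPM in KO-RA and 0.84, 2.51 and 1.77 CPM in KO-O2, separated by a narrow gap (log2 fold change 1.63 ± 0.47, edgeR adjusted p = 0.013). Iigp1 rose from 39.8, 30.3 and 38.3 CPM to 85.4, 91.3 and 84.7 CPM (log2 fold change 1.27 ± 0.10, edgeR adjusted p = 2.5e-07). The KO-O2 lungs were above the KO-RA lungs in all 3 genes, and Iigp1 started from a lower room air level than in WT. B2m, the light chain of MHC class I, was at 435, 462 and 357 CPM in KO-RA and 568, 663 and 542 CPM in KO-O2, beside 554 to 633 CPM over the WT lungs (log2 fold change 0.50 ± 0.10, edgeR adjusted p = 0.0017).

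Ifit3 was at 24.9, 27.5 and 26.6 CPM in KO-RA and 57.8, 65.6 and 80.7 CPM in KO-O2 (log2 fold change 1.37 ± 0.15, edgeR adjusted p = 1.1e-05), and with Ifit3b the sum went from 33.1 ± 0.807 to 82.2 ± 13.3 CPM (SD, n = 3). Isg15, a ubiquitin-like protein that is attached to other proteins, was at 5.71, 5.76 and 6.61 CPM in KO-RA and 10.8, 11.4 and 8.43 CPM in KO-O2. Every KO-O2 lung was higher (log2 fold change 0.76 ± 0.17, edgeR adjusted p = 0.0022), whereas in WT the groups overlapped at 6.29 to 9.70 and 8.07 to 9.05 CPM. Ifit2 rose from 20.4, 18.6 and 20.7 CPM to 28.1, 26.3 and 25.5 CPM, and Mx2 from 2.22, 2.31 and 1.97 CPM to 4.06, 4.18 and 3.01 CPM. Both separated fully (log2 fold changes 0.42 ± 0.10 and 0.79 ± 0.25, edgeR adjusted p = 0.0043 and 0.021). Oas1a, Bst2 and Usp18 rose by smaller or less certain amounts (log2 fold changes 0.83, 0.28 and 0.35), and the calls of Bst2, Usp18 and the gamma-biased Igtp (log2 fold change 0.40) were lost in 2, 5 and 3 of 12 fits without 1 library.

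Tap1 and Psmb9, the head-to-head pair, were singled out after their values were seen. Tap1, a subunit of the peptide transporter, was at 44.0, 40.3 and 34.0 CPM in KO-RA and 50.7, 60.5 and 52.6 CPM in KO-O2 (log2 fold change 0.47, edgeR adjusted p = 0.0037). Psmb9, an immunoproteasome subunit, was at 15.4, 13.4 and 11.4 CPM and 8.61, 10.5 and 9.83 CPM (log2 fold change -0.47, edgeR adjusted p = 0.0071). The 2 genes thus separated in opposite directions in the same 6 mice. Irf1 fell from 79.8, 86.1 and 75.8 CPM to 40.9, 43.5 and 47.8 CPM (log2 fold change -0.87 ± 0.09, edgeR adjusted p = 2.6e-06), about as in WT. Gbp7 and Gbp2 fell by 0.68 and 0.48 on the log2 scale, and the call of Gbp2 was lost in 2 of 12 fits without 1 library.

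Rsad2 stood apart among the KO-O2 lungs, at 20.2 and 20.5 CPM in GSD061 and GSD097 and 6.46 CPM in GSD493. The summed erythroid markers were 26293, 29928 and 5970 CPM in the same 3 lungs, and 26853, 17768 and 12675 CPM in KO-RA, where Rsad2 was at 16.1, 13.5 and 17.1 CPM. In the lung the low values of Rsad2 thus fell in the 4 libraries with the lowest erythroid sums. The part of blood cells in this was not tested.

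In the wider pathway Ifngr1 fell in KO as in WT, from 159, 157 and 153 CPM to 90.9, 96.5 and 83.4 CPM (log2 fold change -0.79, edgeR adjusted p = 4.0e-05), while of the other 5 receptor chains Ifnlr1 and Il10rb, which serve the type III interferons, rose (log2 fold changes 0.29 and 0.18) and 3 did not pass. Socs3 rose by 0.90 on that scale. Of 9 negative regulators 4 were higher and 3 lower, and of 4 JAK-STAT signal transducers 1 was higher and 1 lower. Of 53 other type I-responsive genes 12 were higher and 16 lower, and of 30 other interferon-gamma-responsive genes 8 were higher and 8 lower, where 23.3% of all genes were higher and 23.4% lower. Macrophage markers rose here too, from 272 to 291 CPM to 436 to 543 CPM, with 10 of 10 higher, and 4 of 4 B cell markers fell. Of T and NK cell markers 6 of 11 were lower and 1 higher. Lung epithelial markers were lower in 5 of 8, and endothelial markers lower in 3 of 8 and higher in 1. Liver markers summed to 173 CPM in KO-O2 GSD061 and 1.51 to 3.01 CPM in the other 11 lungs, and without GSD061 16 members passed.

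**Figure D2:**
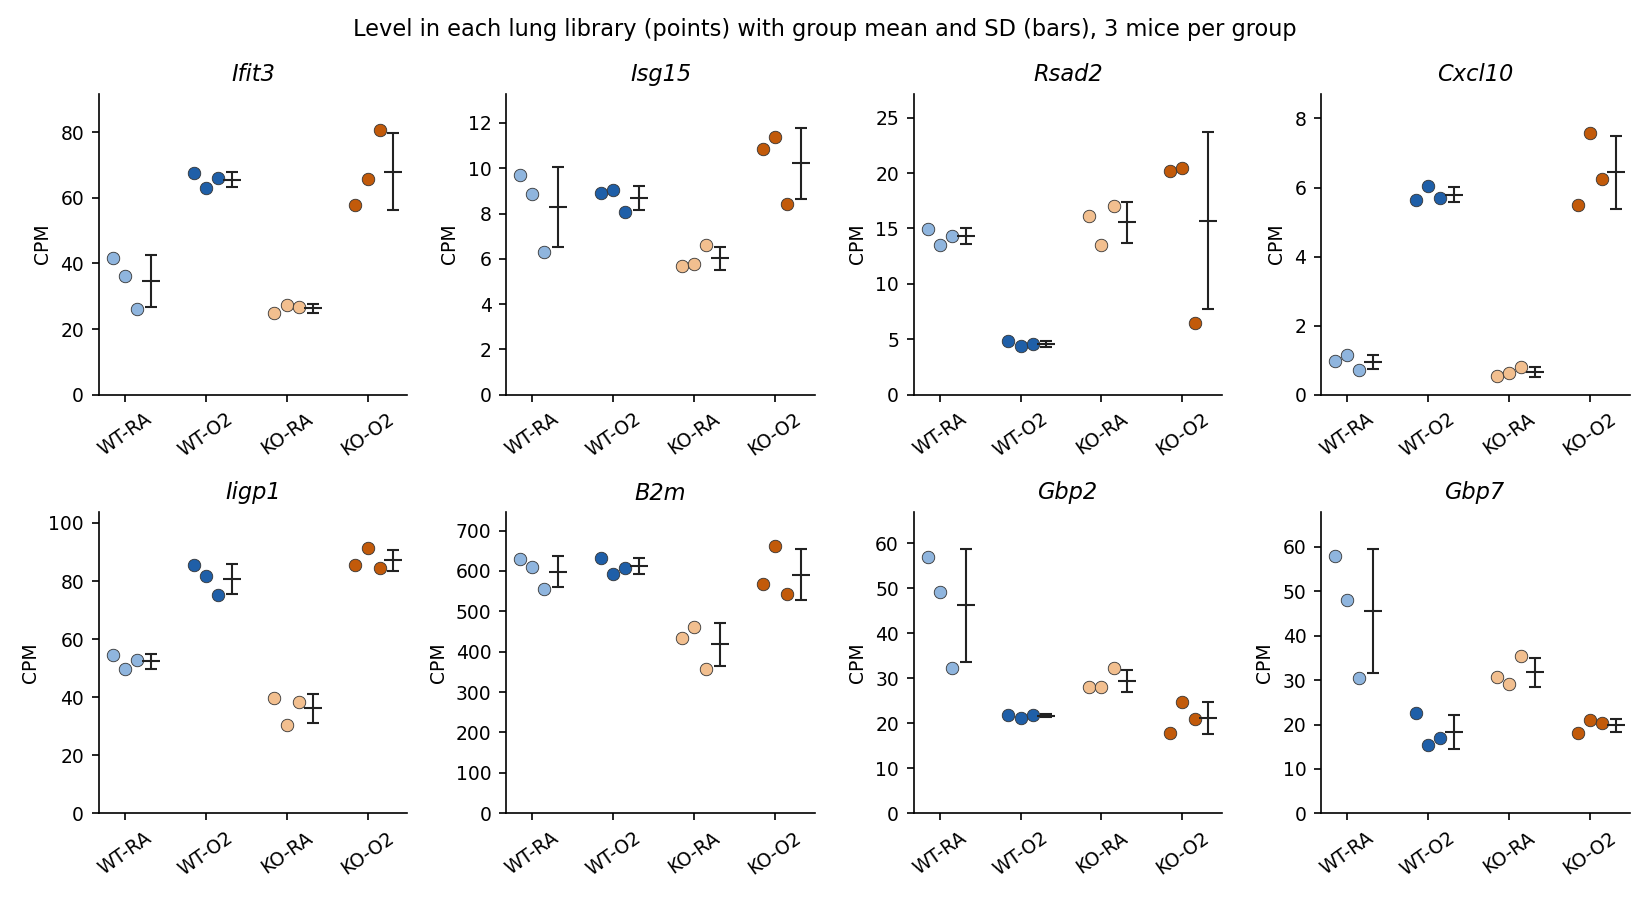
Level in CPM of 8 members in each lung library, 1 point per mouse, with the group mean and SD as bars at the right of each group. Ifit3, Cxcl10 and Iigp1 were higher in every hyperoxic lung than in every room air lung, Gbp2 and Gbp7 were lower in hyperoxia within each genotype, and Isg15 and B2m were lowest in KO-RA on average.

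In room air, Iigp1 and B2m were lower in GSDMD-KO than in WT lungs, and the other 33 members did not pass the test. The log2 fold change of KO-RA against WT-RA was below 0 in 34 of 35 members, Rsad2 being the exception at 0.12. The median was -0.42 for the type I-biased list and -0.52 for the gamma-biased list, where that of all genes was -0.00055. Of the 35, 2 passed the edgeR test, Iigp1 and B2m, both lower, where 0.345% of all genes passed lower.

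Iigp1 was at 54.6, 49.6 and 52.7 CPM in WT-RA and 39.8, 30.3 and 38.3 CPM in KO-RA (log2 fold change -0.53 ± 0.10, edgeR adjusted p = 0.044). B2m was at 630, 610 and 554 CPM and 435, 462 and 357 CPM (log2 fold change -0.52 ± 0.11, edgeR adjusted p = 0.075). Neither gene's groups overlapped, and the calls of Iigp1 and B2m were lost in 4 and 7 of 12 fits that each left out 1 library. At an unadjusted p under 0.05, 26 members were lower, 11 type I-biased and 15 gamma-biased, where 5.51% of all genes were, and in 15 members all KO-RA lungs were below all WT-RA lungs, where 7.9% of all genes were.

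Igtp and Tap1 came next by p, at 21.8, 19.3 and 13.7 against 12.4, 11.2 and 10.7 CPM and at 59.4, 56.5 and 48.0 against 44.0, 40.3 and 34.0 CPM (log2 fold changes -0.68 ± 0.16 and -0.47 ± 0.11, edgeR adjusted p = 0.11 for both). Of the type I-biased genes Oas1a, an RNA-triggered synthetase, was at 5.90, 5.95 and 2.51 CPM in WT-RA and 2.63, 2.65 and 2.10 CPM in KO-RA (log2 fold change -0.96 ± 0.26, edgeR adjusted p = 0.17). Oasl2 was at 68.2, 64.6 and 37.6 CPM and 36.1, 37.3 and 36.4 CPM (log2 fold change -0.63 ± 0.17, edgeR adjusted p = 0.18). In both genes GSD400 lay with the KO-RA lungs. Of the wider lists, Phf11d, Slfn2, Rtp4 and Cd274 passed, all lower (log2 fold changes -0.53, -0.49, -0.64 and -0.72), and 48 of 53 and 28 of 30 genes had a log2 fold change below 0.

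The 3 WT-RA lungs differed among themselves more than any other group. The median over the type I-biased members of the difference from the 12-library mean, on the log2(CPM + 1) scale, was 0.40, 0.22 and -0.24 in WT-RA, 0.05, 0.06 and 0.12 in WT-O2, -0.22, -0.25 and -0.27 in KO-RA and 0.02, 0.09 and 0.04 in KO-O2. For the gamma-biased members it was 0.52, 0.42 and 0.02 in WT-RA, -0.01, -0.20 and -0.13 in WT-O2, -0.20, -0.13 and -0.11 in KO-RA and -0.18, 0.03 and -0.11 in KO-O2. GSD400 was thus at the KO-RA level for the type I-biased list and between both groups for the gamma-biased list. Without it 28 members passed for KO-RA against WT-RA, all lower, where 3.53% of all genes passed in either direction, and in fits without 1 other library 0 to 2 passed. DESeq2 on all libraries passed 14, where it passed 2.49% of all genes.

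The Y-linked counts differ between these groups, 0 of 3 in WT-RA and 2 of 3 in KO-RA, and with Y-linked expression as a covariate 0 members passed, as did 0 of all genes tested. Within KO-RA the 1 lung without Y-linked transcripts, GSD490, had list medians of -0.22 and -0.20, next to -0.25 to -0.27 and -0.11 to -0.13 in the other 2. Macrophage markers were 314 to 375 CPM in WT-RA and 272 to 291 CPM in KO-RA, with 10 of 10 below 0 (median log2 fold change -0.38), 7 at an unadjusted p under 0.05, 6 without overlap and 1 passing lower. Endothelial markers were below 0 in 8 of 8 (3 at an unadjusted p under 0.05, 4 without overlap), monocyte markers in 5 of 5, B cell markers in 4 of 4 and T and NK cell markers in 10 of 11, with 0 passing. Erythroid markers went the other way, above 0 in 7 of 7 (2 without overlap), as did neutrophil markers in 4 of 5, again with 0 passing. The part of sex and of these cells in the difference was not tested beyond these values.

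**Figure D3:**
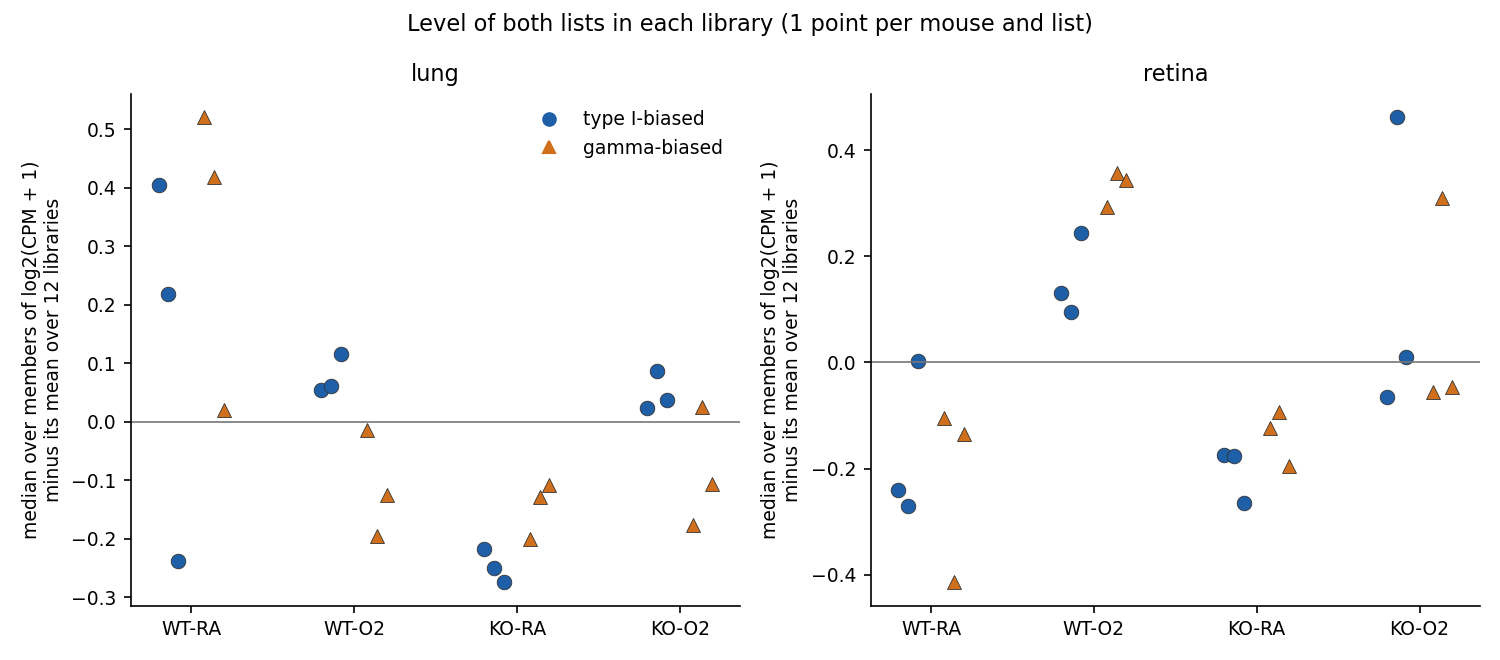
For each library, the median over the members of a list of log2(CPM + 1) minus its mean over the 12 libraries of the tissue, with circles for the type I-biased and triangles for the gamma-biased list. In the lung WT-RA spreads from -0.24 to 0.40 for the type I-biased list while KO-RA lies at -0.27 to -0.22, and in the retina the WT-O2 triangles lie at 0.29 to 0.36, above the 6 room air libraries.

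The interaction asks whether the hyperoxia response differs between genotypes. Its log2 value was above 0, that is higher in KO, in 17 of 18 type I-biased and 17 of 17 gamma-biased members, with medians of 0.41 and 0.60. Of all genes tested 50.6% were above 0, with a median of 0.0025. By edgeR 0 of 35 members passed at an adjusted p under 0.1, where 0.00595% of all genes did; at an unadjusted p under 0.05 there were 19 members higher and 0 lower, where 3.33% of all genes were higher, and DESeq2 passed 2, where it passed 0.654% of all genes. The smallest p belonged to Iigp1 (0.64 ± 0.14, unadjusted p = 0.00028, edgeR adjusted p = 0.28). Irgm1 (0.59 ± 0.18), B2m (0.47 ± 0.15), Rsad2 (1.65 ± 0.47) and Isg15 (0.70 ± 0.23) followed, with edgeR adjusted p of 0.50 to 0.56. The interaction shares the room air libraries with the comparison above, and without GSD400 5 members passed, where 0.263% of all genes did.

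In hyperoxia no member passed between genotypes. For KO-O2 against WT-O2 0 of 35 members passed the edgeR test, where 0.0416% of all genes did. With p under 0.05 before adjustment, 1 member was higher and 1 lower, Rsad2 and Mx1, where 6.21% of all genes moved in either direction, and DESeq2 passed 1, where it passed 0.517% of all genes. The list medians were -0.07 (type I-biased) and 0.05 (gamma-biased). Rsad2, at 4.37 to 4.88 CPM in WT-O2 and 6.46 to 20.5 CPM in KO-O2, had a log2 fold change of 1.77 ± 0.34 (edgeR adjusted p = 0.30), and Mx1, at 4.71 to 6.51 and 3.29 to 4.05 CPM, one of -0.57 ± 0.22 (edgeR adjusted p = 0.74). Iigp1, at 75.1 to 85.4 in WT-O2 and 84.7 to 91.3 in KO-O2 CPM, had a log2 fold change of 0.11 ± 0.09.

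In WT retinas 6 of 34 members were higher on day 18 in mice that had been in hyperoxia. These were Irf7, Oasl2, Ddx58 and Irf9 among the type I-biased genes and Gbp7 and B2m among the gamma-biased genes. The log2 fold change of WT-O2 against WT-RA was above 0 in 31 of 34 members tested, with medians of 0.50 (type I-biased) and 0.69 (gamma-biased), where the median of all genes was 0.00092. These 6 passed the edgeR test, where 3.11% of all genes passed higher, and 0 passed lower, by DESeq2 or at an unadjusted p under 0.05 also 0. DESeq2 passed 11 members, where it passed 9.99% of all genes, and edgeR with library totals alone 15, where 13.5% of all genes passed by that scaling. With a fold change of at least 2, 3 members passed (Irf7, Oasl2 and Ddx58), where 1.77% of all genes did, and in 18 members every WT-O2 retina was above every WT-RA retina, where 12.1% of all genes were so. Of the WT retinas, Y-linked transcripts marked 3 in room air and 1 after hyperoxia. With the Y-linked covariate or library totals alone both list medians were higher, as given under the processing.

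Irf7, the factor that amplifies type I interferon production, was at 9.84, 6.59 and 13.8 CPM in WT-RA and 26.6, 34.0 and 22.5 CPM in WT-O2, a 2.75-fold rise without overlap (log2 fold change 1.46 ± 0.29, edgeR adjusted p = 0.025). Oasl2 was at 8.04, 4.61 and 8.74 CPM and 16.6, 12.6 and 15.3 CPM (log2 fold change 1.06 ± 0.24, edgeR adjusted p = 0.044). Ddx58 was at 3.80, 5.34 and 7.54 CPM and 12.4, 9.32 and 12.8 CPM (log2 fold change 1.05 ± 0.26, edgeR adjusted p = 0.059). In all 3 genes the groups were fully separate. Irf9, the DNA-binding partner of Stat2, rose from 13.8, 18.4 and 19.4 CPM to 28.2, 29.3 and 24.0 CPM (log2 fold change 0.66 ± 0.18, edgeR adjusted p = 0.079), a call lost in 7 of 12 fits without 1 library.

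Gbp7 was at 1.28, 1.41 and 1.58 CPM in WT-RA and 3.00, 2.68 and 2.86 CPM in WT-O2, with little spread within either group (log2 fold change 1.00 ± 0.21, edgeR adjusted p = 0.036). B2m was at 67.6, 38.0 and 62.8 CPM and 109, 106 and 112 CPM (log2 fold change 0.96 ± 0.24, edgeR adjusted p = 0.059). Psmb9 and Gbp6 came next, at 1.80, 1.33 and 0.60 against 2.69, 2.65 and 3.44 CPM and 1.76, 1.07 and 1.93 against 2.66, 3.27 and 2.55 CPM (log2 fold changes 1.23 ± 0.37 and 0.84 ± 0.26, edgeR adjusted p = 0.11 and 0.12). Both pairs of groups were separate but did not pass the test. Cxcl10 was near the limit of detection in room air, at 0, 0.0762 and 0.128 CPM, and was at 1.62, 0.686 and 0.579 CPM in WT-O2 (edgeR adjusted p = 0.18).

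The 3 lens-rich libraries all lie in the RA groups, among them the library labelled WT-RA GSD382, whose Gsdmd goes against its label. Without the 3 lens-rich retinas, a setting chosen after seeing the data that leaves 1 WT-RA mouse, assumed to vary like the mice of the other groups, 2 members passed for WT-O2 against WT-RA (Irf7 and Ddx58), with medians of 0.55 and 0.57. Without the library labelled WT-RA GSD382 only Irf7 passed (1 member), with medians of 0.46 and 0.59. Fits without 1 library passed 1 to 8 members. The count was also 1 without WT-O2 GSD345 or GSD350, where Irf7 passed, and without WT-RA GSD379, where B2m passed and Irf7 had an edgeR adjusted p of 0.101, and it was 8 without WT-RA GSD383.

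In GSDMD-KO retinas 3 of 34 members were higher after hyperoxia and 0 lower, by DESeq2 and at an unadjusted p under 0.05 also 0. The log2 fold change of KO-O2 against KO-RA was above 0 in 30 of 34 members, with medians of 0.53 (type I-biased) and 0.23 (gamma-biased). Of the KO retinas, Y-linked transcripts marked 3 in room air and 1 after hyperoxia. With the Y-linked covariate the gamma-biased median was higher, as given under the processing. Irf7, Oasl2 and Tap1 passed the edgeR test (3 members), where 4.38% of all genes passed higher, and the same 3 had a fold change of at least 2, where 1.64% of all genes passed. In 8 members every KO-O2 retina was above every KO-RA retina, where 13.5% of all genes were so, and in 1, Irgm2, every KO-O2 retina was below, where 12.7% were so. For Irgm2 the WT value was 0.63 and the KO value -0.44 (log2 fold changes), and 5 of 34 members (Irgm2, Mx1, Gbp5, Rsad2 and Ifi44) had opposite signs in the genotypes.

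Irf7 was at 14.6, 11.8 and 10.4 CPM in KO-RA and 34.2, 49.5 and 26.7 CPM in KO-O2 (log2 fold change 1.58 ± 0.29, edgeR adjusted p = 0.015), and Oasl2 at 7.57, 7.67 and 8.58 CPM and 12.6, 21.1 and 16.7 CPM (log2 fold change 1.08 ± 0.24, edgeR adjusted p = 0.034). Both had no overlap, as in WT. Tap1 was at 1.49, 1.68 and 1.47 CPM and 2.50, 5.30 and 2.99 CPM (log2 fold change 1.21 ± 0.33, edgeR adjusted p = 0.065), a call lost in 5 of 12 fits without 1 library. GSD308 was the highest KO-O2 retina in all 3 genes, and its list medians were 0.46 and 0.31 where the other 2 were at -0.07 to 0.01 and -0.06 to -0.05. Without GSD308 only Irf7 passed (1 member), and the medians were 0.27 and 0.09. Without KO-RA GSD301 Irf7 was again the 1 member that passed.

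Endothelial and macrophage or microglia markers rose in the same retinas, while of monocyte, B cell and neutrophil markers 0 passed in either genotype. Of T and NK cell markers 0 of 6 passed in WT and 1 of 6 passed higher in KO. Of erythroid markers 0 of 5 passed in WT and 2 of 5 passed lower in KO. Endothelial markers summed to 115 to 144 CPM in WT-RA and 243 to 275 CPM in WT-O2, with 7 of 8 higher, and to 138 to 151 and 202 to 228 CPM in KO, with 6 of 8 higher. Macrophage and microglia markers summed to 45.6 to 69.5 CPM in WT-RA and 107 to 158 CPM in WT-O2, and to 42.5 to 61.1 and 103 to 145 CPM in KO, with 5 of 10 higher in each genotype. Of the wider lists Ifitm3, which blocks viral entry, rose in both genotypes (log2 fold changes 1.60 in WT and 1.39 in KO), as did Eif2ak2, which encodes the RNA-activated kinase PKR (1.04 and 0.80), while H2-K1, an MHC class I heavy chain, passed in KO (1.62). Among 49 other type I-responsive genes 5 were higher in WT and 3 in KO, with 0 lower. Among 26 other interferon-gamma-responsive genes 4 were higher in WT and 2 in KO, with 0 lower. Of all genes 3.11% passed higher in WT and 4.38% in KO. The part of endothelial and microglial cells in the members' rise was not tested.

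**Figure D4:**
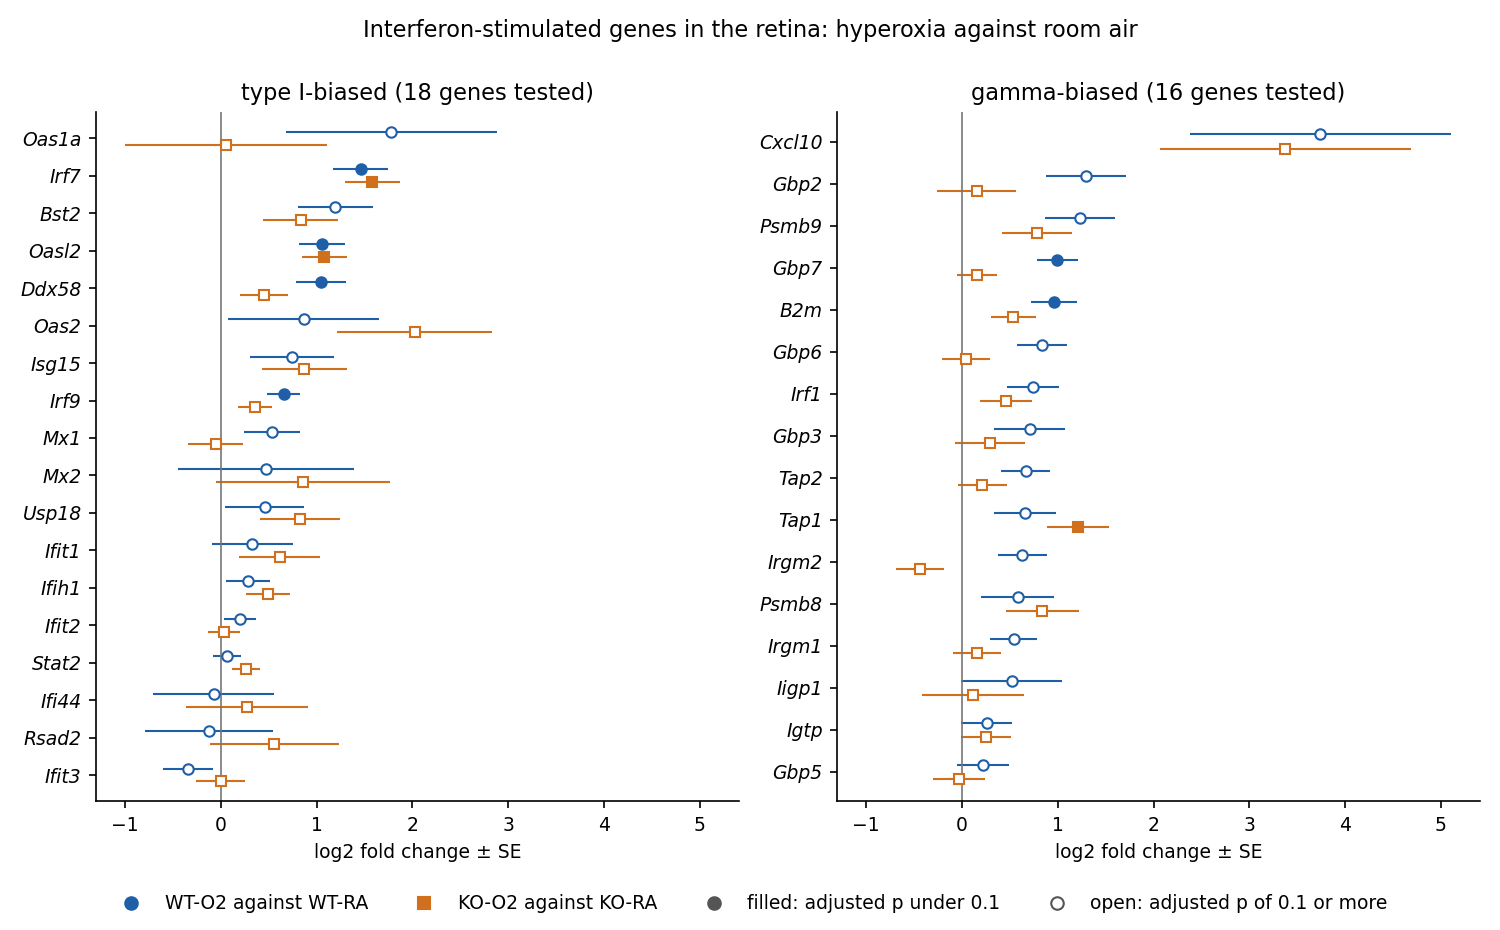
Log2 fold change (± SE) of each member between hyperoxia-exposed and room air retinas in WT mice (circles) and GSDMD-KO mice (squares), 3 mice per group, with symbols filled at an edgeR adjusted p under 0.1. The 16 gamma-biased circles all lie above 0, and the wide bars of Cxcl10, Oas1a and Oas2 belong to genes with few counts.

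Between genotypes no retina member passed. For KO-O2 against WT-O2 0 of 34 passed the edgeR test, where 1.27% of all genes did, and 4 were lower at an unadjusted p under 0.05, where 6.27% of all genes were lower, and DESeq2 passed 2, both lower, where it passed 5.22% of all genes. The 4 were Irgm2, Irf9, Irf1 and Psmb9. Irgm2 was at 2.81, 2.34 and 2.62 CPM in WT-O2 and 1.32, 1.54 and 1.19 CPM in KO-O2, with no overlap (log2 fold change -0.94 ± 0.25, edgeR adjusted p = 0.14), and Irf9 at 28.2, 29.3 and 24.0 CPM and 15.6, 23.1 and 17 CPM (log2 fold change -0.55 ± 0.17, edgeR adjusted p = 0.21). The medians were 0.13 (type I-biased) and -0.25 (gamma-biased), and without KO-O2 GSD308 they were -0.0652 and -0.50. Among the genes of the wider lists that passed, Ifitm1 (log2 fold change -1.43, edgeR adjusted p = 0.039) and the adaptor Myd88 (-0.72, edgeR adjusted p = 0.039) were both lower in KO-O2.

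For KO-RA against WT-RA 0 of 34 passed, where 0.00522% of all genes did in either direction, 2 were higher at an unadjusted p under 0.05 (Gbp7 and Gbp6), where 7.01% of all genes were, and DESeq2 passed 0. Gbp7 was at 1.28 to 1.58 CPM in WT-RA and 2.02 to 2.70 CPM in KO-RA (log2 fold change 0.73 ± 0.21, edgeR adjusted p = 0.24). The medians were 0.02 and 0.11, and without the library labelled WT-RA GSD382 they were -0.12 and -0.0395. With library totals alone the count of members that passed and both medians were higher, as given under the processing. For the interaction 0 of 34 passed, where again 0.00522% of all genes did, 2 were lower at an unadjusted p under 0.05 (Irgm2 and Gbp7), where 5.35% of all genes were, and DESeq2 passed 0. Its medians were 0.16 and -0.41. The type I-biased one was -0.19 without KO-O2 GSD308 and 0.33 without the library labelled WT-RA GSD382.

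Lung and retina were measured at other ages, oxygen doses and times after exposure, and their tables were tested apart. Set side by side, the gamma-biased members of WT mice had a median log2 fold change of -0.49 in the lung and 0.69 in the retina. Gbp2, Gbp3, Gbp7, Irgm1, Irgm2, Tap2 and Psmb9 (7 members) were lower in every hyperoxic WT lung and higher in every hyperoxia-exposed WT retina than in every room air library of the tissue, where 3.67% of the 15594 genes tested in both tissues separated in this way. Of the 7 only Gbp7 passed the edgeR test in the retina. In KO mice 2 members did (Irf1 and Psmb9), where 3.84% of those genes did. Ifit3, which rose in the lung, was at 7.36, 6.82 and 9.81 CPM in WT-RA and 7.16, 6.14 and 5.65 CPM in WT-O2 retinas. The difference between tissues was not tested.

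**Figure D5:**
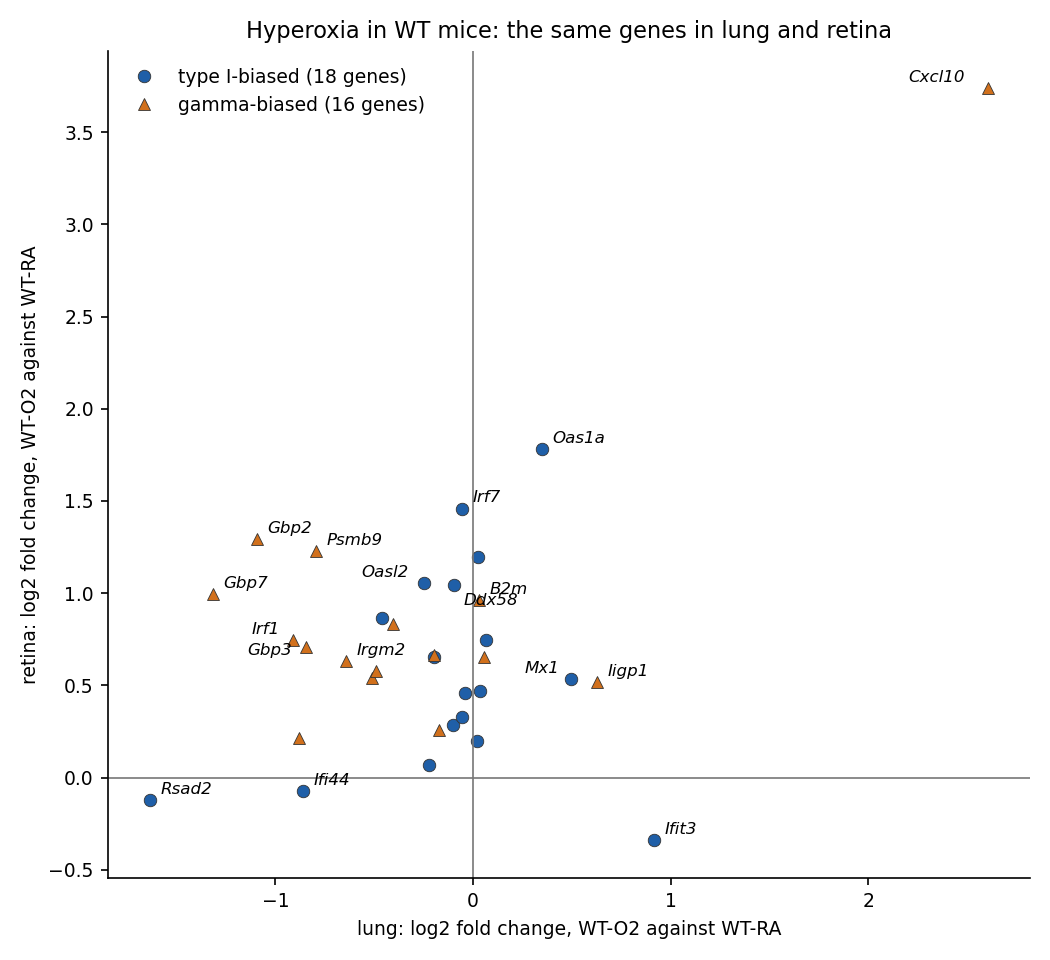
Log2 fold change of WT-O2 against WT-RA in the lung (x axis) and in the retina (y axis) for the 34 members tested in both, with circles for type I-biased and triangles for gamma-biased genes. Gbp2, Gbp7 and Psmb9 lie in the upper left, lower in the lung and higher in the retina, and Cxcl10 lies at the upper right, its retina value resting on few counts.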

How the data were processed

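RNA-seq was performed on 12 lungs and 12 retinas. Quantification by the authors used kallisto on transcripts, collapsed to genes by tximport, and the deposited tables hold expected counts (estimated counts), 1 table per tissue, not divided by library size. Per the labels, FastQC was used too and the build is mm10, while the study's methods name GRCm39, so no coordinate of the deposited tables was used and promoter positions are those of the RefSeq table. Whole numbers (within 0.001) made up 44.9% of the deposited lung values and 0.350% of the retina values. The reason for this difference is not given in the sources used here, and the tissues were not tested together. Symbols were matched by Ensembl identifier.

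Counts were rounded and fitted with edgeR 4.0.16 in R 4.3.3, all 12 libraries of a tissue in 1 model with a term per group, TMM normalization and filterByExpr, with the robust quasi-likelihood F-test, and p-values were adjusted over all genes tested (Benjamini-Hochberg). The 5 contrasts were hyperoxia in each genotype, genotype in each exposure and their interaction. A gene passed at an adjusted p under 0.1, and counted as 2-fold if p was also under 0.05 and the change 2-fold or more. SE was obtained from F by dividing the size of the log2 fold change by its root. Precision rests on 3 mice per group, and genes under 1 CPM rest on few counts. The alternatives were RLE factors, library totals, no filter, DESeq2 1.42.0, a Y-linked covariate (present above 20 CPM), only the 6 libraries compared, and leaving out each library. The fit was tested on simulated data.

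All 35 members may be named. Full statistics go, per tissue and contrast, to the 4 lowest-p members of each list at most and to those past the 2-fold rule, and of each wider list up to 3 genes are named. Members and lists were chosen with earlier results of these data known. Markers, lists of interferon genes and the figures were computed in Python with pandas and matplotlib.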

Additional observations from a re-analysis of the deposited data

Results flagged for a closer look

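In 7 members every hyperoxic WT lung lay below every room air lung and every hyperoxia-exposed WT retina above every room air retina. All 7 passed the edgeR test in the lung but only Gbp7 in the retina, and the difference between tissues was not tested. Of the 15594 genes tested in both tissues 3.67% separated as these 7 did, lower in the lung and higher in the retina. The log2 fold changes in lung and retina were -1.09 and 1.29 for Gbp2, -0.85 and 0.71 for Gbp3, -1.32 and 1.00 for Gbp7, -0.51 and 0.54 for Irgm1, -0.64 and 0.63 for Irgm2, -0.20 and 0.67 for Tap2, and -0.79 and 1.23 for Psmb9. All 7 are gamma-biased. In GSDMD-KO mice 2 members were ordered in this way, where 3.84% of all genes were, and neither passed the test in the retina. They were Irf1 (-0.87 and 0.46, lung first) and Psmb9 (-0.47 and 0.79), again untested. Psmb9 appears in both genotypes.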

How the results depend on the processing

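No paired analysis was possible because the titles carry mouse numbers and no replicate numbers shared between groups. Of the member counts, that for KO-RA against WT-RA in the lung (2) became 5 without the low-count filter, 14 by DESeq2, 0 with the Y-linked covariate and 0 with only the 6 libraries compared. By DESeq2 the lung counts of KO-O2 against WT-O2 and of the interaction became 1 and 2, and the retina counts of WT-O2 against WT-RA and KO-O2 against WT-O2 became 11 and 2. With library totals alone the median of all genes in the retina moved by 0.24 (WT-O2 against WT-RA) and 0.17 (KO-RA against WT-RA). By that scaling 15 members passed for WT-O2 against WT-RA, with medians (type I-biased, then gamma-biased) of 0.74 and 0.93. For KO-RA against WT-RA 1 passed, with medians of 0.20 and 0.30, and the interaction medians were -0.0427 and -0.59. The Y-linked covariate gave retina medians of 0.83 and 0.88 in WT and 0.49 for the gamma-biased list in KO. Without the 3 lens-rich retinas, chosen after seeing the data, the WT count was 2 and the type I-biased interaction median -0.0106. The cause of these shifts was not tested.

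Leaving out each library in turn gave the following ranges of the count and of both medians. In the lung they were 14 to 24, -0.22 to 0.05 and -0.65 to -0.39 for WT-O2 against WT-RA, and 13 to 22, 0.27 to 0.34 and -0.07 to 0.09 for KO-O2 against KO-RA. They were 0 to 1, -0.11 to -0.03 and -0.11 to 0.11 for KO-O2 against WT-O2, 0 to 28, -0.60 to -0.28 and -0.68 to -0.46 for KO-RA against WT-RA, and 0 to 5, 0.29 to 0.60 and 0.43 to 0.73 for the interaction. In the retina they were 1 to 8, 0.46 to 0.72 and 0.59 to 0.87 in WT, 1 to 4, 0.27 to 0.71 and 0.0897 to 0.39 in KO, 0 to 0, -0.0652 to 0.17 and -0.50 to -0.12 for KO-O2 against WT-O2, 0 to 0, -0.12 to 0.28 and -0.0395 to 0.22 for KO-RA against WT-RA, and 0 to 0, -0.19 to 0.33 and -0.60 to -0.28 for the interaction.

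Of 44 calls of single members, all kept direction and call with DESeq2, RLE factors and no filter, 43 with library totals, 39 with the Y-linked covariate and 39 with only the 6 libraries compared. Without the lens-rich retinas, which leaves 1 WT-RA mouse assumed to vary like the other groups, 4 of 9 retina calls passed and 0 reversed. Genes under 1 CPM rest on few counts, and 3 mice per group limit small differences.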
